A study of Mus musculus with 5 samples.

Results

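The fibroblast growth factor (FGF) genes described here are 10 genes of the mouse uterus, 6 ligands (Fgf1, Fgf2, Fgf7, Fgf9, Fgf10 and Fgf18) and the 4 signaling receptors Fgfr1, Fgfr2, Fgfr3 and Fgfr4. They were taken by gene symbol from a table of 28666 genes, in which each of the 10 was found once. RNA was sequenced from uteri of ICR females, 6 to 8 weeks old, after caging with vasectomized C57BL/6 males, whose ejaculate holds seminal plasma (SP) but no sperm. The aged-SP group was mated with old males and comprised 2 libraries (replicates 1 and 4), and the young-SP group was mated with young males and comprised 3 libraries (replicates 1, 2 and 4). All females were pseudopregnant and carried no embryos. The uteri were collected 3.5 days after caging according to the series. The methods of the study instead count days post coitum, to a time before embryo transfer, so these times run from different starts. The labels do not say whether a library is a single uterus or a pool, so that the spread reported here is that between libraries, which may in part be technical.

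FGFs are secreted proteins that bind FGF receptors, which are tyrosine kinases of the cell surface, together with heparan sulfate chains on neighboring proteoglycans. The activated receptor signals through the adaptor FRS2 to the RAS and MAPK cascade, and this induces feedback inhibitors such as the Sprouty proteins. In the uterus, FGFs of the stroma act on receptors of the epithelium and drive its proliferation under estrogen, while the progesterone-dependent stromal factor HAND2 lowers several of these FGFs before implantation. FGF7 and FGF10 act on the epithelial splice form of FGFR2, and FGF9 prefers mesenchymal splice forms of the receptors. Counts per gene do not separate these splice forms.

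The total count of a library lay between 15071914 and 16728601, and 17013 genes had enough counts to be tested, including all 10 FGF genes. With edgeR's quasi-likelihood test, genes were called where the Benjamini-Hochberg adjusted p was under 0.05 and the log2 fold change (aged-SP over young-SP) was above 1 or below -1. By this rule 25 genes (0.147% of those tested) were called, 14 higher (0.0823%) and 11 lower (0.0647%), or 8 higher and 10 lower with DESeq2 size factors. The count rested on single libraries and on the tool, with 578 calls without young-SP replicate 1, 49 without aged-SP replicate 4, 1 to 3 without any of the other libraries, and 632 by DESeq2 with the same thresholds (296 higher and 336 lower). Markers of uterine epithelium, stroma, myometrium, endothelium and leukocytes were above 0 in every library, as a whole uterus should show, and so were the 5 markers of mesothelium and of oviduct. The summed level of 7 gland markers differed most, at 4133 and 3021 CPM (counts per 1000000 of the scaled library total) in aged-SP replicates 1 and 4, 612 in young-SP replicate 1 and 80.6 and 67.4 in young-SP replicates 2 and 4. The proteases Prss28 and Prss29, which glands secrete around implantation, made up most of it in the aged-SP libraries and in young-SP replicate 1. The other 5 gland markers summed to between 55.6 and 229 CPM, and made up most of it in young-SP replicates 2 and 4 (77.3 and 55.6 CPM). Of these, Foxa2, Cxcl15 and Aldh1a1 did not follow the proteases. Foxa2 and Cxcl15 were highest in young-SP replicate 2 (14.1 and 20.2 CPM). Aldh1a1 was highest in young-SP replicate 1 (87.1 CPM), against 27.7 CPM in aged-SP replicate 1, where the proteases were highest. The ranges of the groups also did not overlap for skeletal muscle markers (91.5 to 116 CPM in the aged-SP group and 193 to 264 CPM in the young-SP group) and for adipose markers (3.75 to 6.01 and 6.38 to 15.9 CPM), of which Myl1 and, for fat, Adipoq, Plin1 and Cidec were at 0 in some libraries. The muscle sum was carried by Acta1, the only gene of its list whose groups did not overlap. In the other lists they overlapped, at 1015 to 1858 CPM for epithelium, 11821 to 17673 for myometrium, 608 to 984 for endothelium, 1186 to 2112 for leukocytes, 148 to 246 for mesothelium and 58.8 to 259 for oviduct over all libraries. Ovary (22.1 to 71.6 CPM) and vagina and cervix (4.99 to 16.8 CPM) were low, with Lhcgr, Cyp11a1, Zp3, Krt5 and Krt6a at 0 in some libraries.

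Levels were compared between genes per length, as the FPKM deposited by the authors (fragments per kilobase of gene length and per 1000000 counted reads). Fgfr2 and Fgfr1 headed the list, with means over the 5 libraries of 12.7 ± 3.35 and 7.97 ± 1.46 FPKM (SD, n = 5). Fgf1 was the most abundant ligand by its mean (5.72 ± 4.76 FPKM, SD, n = 5) and followed in the order. Then came Fgf2 (2.59 ± 0.543), Fgf7 (1.63 ± 0.585), Fgf10 (1.52 ± 0.437), Fgf18 (1.20 ± 0.480) and Fgf9 (1.06 ± 1.20), with Fgfr3 (0.754 ± 0.247) and Fgfr4 (0.423 ± 0.147) at the end (FPKM, SD, n = 5 each). No neighbors in this order were separated in range, since each gene's lowest library lay below the highest library of the next gene. Within libraries the order was firmer in places: Fgfr2 exceeded Fgfr1 and Fgf2 exceeded Fgf7 in 5 of 5 libraries, whereas Fgf1 exceeded Fgf2 in 2 of 5.

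**Figure D1:**
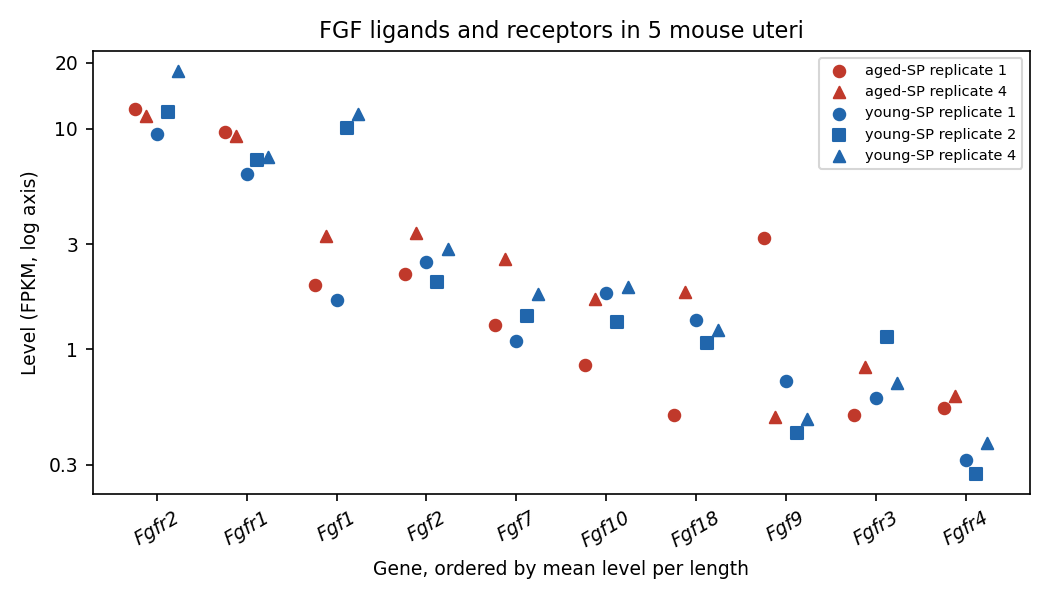
Level of each FGF gene (FPKM, log axis) in the 5 libraries, with genes ordered by mean level, red points for aged-SP and blue points for young-SP libraries, and the marker shape for the replicate number. Fgf1 splits into 3 libraries between 1.67 and 3.28 FPKM and 2 young-SP libraries at 10.1 and 11.6 FPKM, and Fgf9 is high in aged-SP replicate 1 alone.

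Fgf1, a ligand that binds all 4 receptors, varied more between libraries than any member other than Fgf9. Its count was 152 and 239 in aged-SP replicates 1 and 4, and 125, 776 and 815 in young-SP replicates 1, 2 and 4. Young-SP replicates 2 and 4 were thus high, while young-SP replicate 1 was the lowest of the 5 libraries, below both aged-SP libraries, so that the groups overlapped. After scaling, Fgf1 averaged 12.2 ± 4.31 CPM with aged SP (SD, n = 2) against 36.0 ± 24.8 CPM with young SP (SD, n = 3). The log2 fold change was -1.56 (95% interval -3.59 to 0.48, adjusted p = 0.365 in edgeR), which did not pass the test. Without young-SP replicate 1 it was -2.05 with an adjusted p of 0.0279 in edgeR, where 1.71% of the tested genes were called lower by the same rule. The 3 libraries with low Fgf1 were the 3 with a high sum of gland markers (612 to 4133 CPM, against 67.4 and 80.6 CPM where Fgf1 was high), with 7 of 7 gland markers above 0 in every library. Prss28 and Prss29 carried the sum in these 3 libraries. Foxa2, in contrast, was lowest in young-SP replicate 1 (8.51 CPM) and Cxcl15 lowest in the aged-SP libraries (2.90 and 1.92 CPM), against that order. The part of these genes in the Fgf1 values was not tested. The 10 stromal markers summed to 4138 and 5140 CPM in aged-SP replicates 1 and 4. In young-SP replicates 1, 2 and 4 they summed to 4296, 5699 and 6205 CPM. This sum was thus also higher in the 2 libraries with high Fgf1, but not every marker followed it. Dcn was lower in young-SP replicate 2 than in both aged-SP libraries. Vcam1 was lowest in young-SP replicate 4 and highest in aged-SP replicate 1. Thy1 and Hand2 were lower in young-SP replicate 2 than in young-SP replicate 1. The other stromal markers were higher in both libraries with high Fgf1 than in the rest. In bulk tissue, fewer cells of a type and less RNA per cell cannot be told apart.

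Fgf1 lies on chromosome 18 (38838673 to 38929404, minus strand, GRCm38, ENSMUSG00000036585) and shared no exonic base and no 50-base stretch with another gene of GENCODE M21. In young-SP replicates 2 and 4 it made up 61.7% and 58.5% of the summed FPKM of the 6 ligands. Its share was 19.6% and 24.8% in aged-SP replicates 1 and 4 and 18.3% in young-SP replicate 1. The other 5 ligands together varied less, between 6.25 and 9.97 FPKM. The tested genes most like Fgf1 in pattern, by the root mean square difference of log2 CPM centered over the 5 libraries, were Gm37509 (0.23), Gm43398 (0.23) and Stmn4 (0.23), the last of which encodes a stathmin that binds tubulin. The nearest other FGF gene by this measure was Fgfr3, at 0.93.

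**Figure D2:**
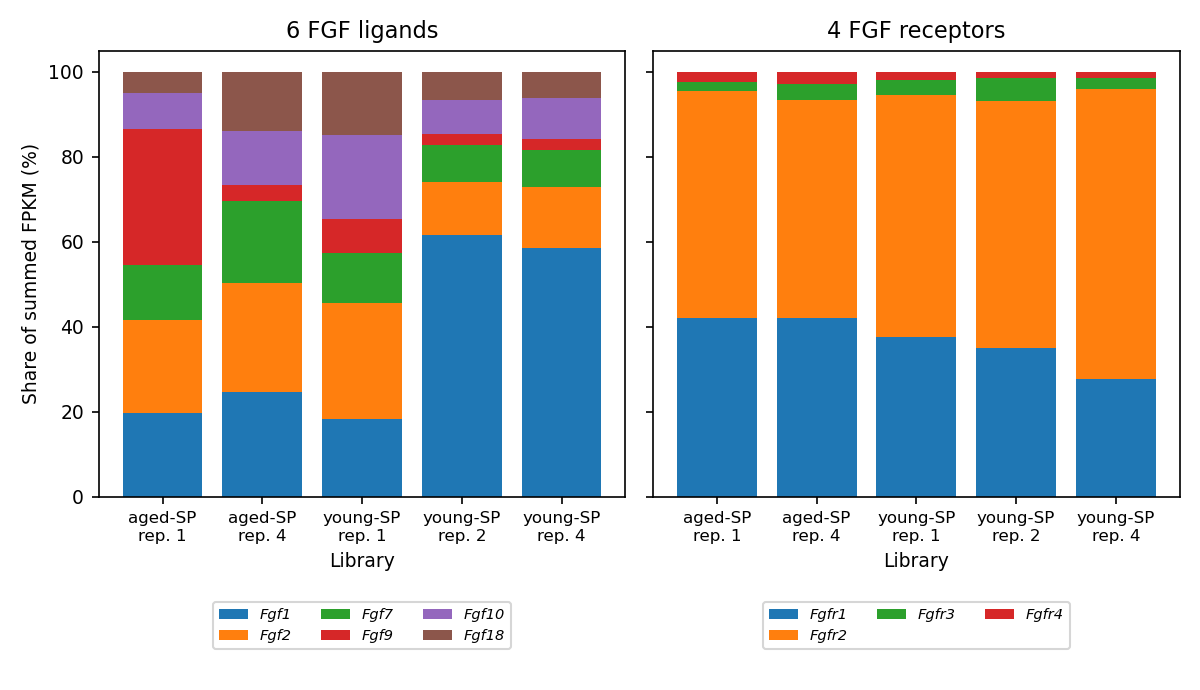
Share of each gene in the summed FPKM of the 6 ligands (left) and of the 4 receptors (right), in percent, with a bar for each library. Fgf1 takes 58.5% and 61.7% of the ligand sum in young-SP replicates 4 and 2 and at most 24.8% in the other 3 libraries, while Fgfr1 and Fgfr2 together hold between 93.1% and 96.0% of the receptor sum in every library.

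Fgf9, a ligand made by epithelium and mesothelium in several organs, had the largest fold change among the 10 genes. Its count was 248 in aged-SP replicate 1, against 36 in aged-SP replicate 4 and 54, 32 and 34 in young-SP replicates 1, 2 and 4. A single library was therefore high, and aged-SP replicate 4 lay within the range of the young-SP group. The log2 fold change was 1.78 (95% interval -0.10 to 3.66, adjusted p = 0.283 in edgeR), and without aged-SP replicate 1 it was -0.13 (adjusted p = 0.938 in edgeR). The same library had the highest level of the gland marker Spink1, at 153 CPM against 7.74 to 12.2 CPM in the other 4 libraries. Its mesothelium markers summed to 172 CPM, within the 148 to 246 CPM of the young-SP group. Wt1 made up most of that sum (124 CPM), while Upk3b (16.6 CPM), Lrrn4 (5.14 CPM) and Upk1b (2.18 CPM) were lowest in this library. Wt1 and Msln (24.0 CPM) were neither lowest nor highest there. Spink1 was picked from the 7 gland markers after its values were seen, and Foxa2 (10.6 CPM), Cxcl15 (2.90 CPM) and Aldh1a1 (27.7 CPM) were not highest in that library. Their part in the Fgf9 values was not tested. Fgf9 is on chromosome 14 (58070547 to 58112720, plus strand, ENSMUSG00000021974), and 0.307% of its 50-base stretches occur in other genes.

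The other 4 ligands showed smaller differences. Fgf2, a heparin-binding growth factor of stroma and vessels, had 249 and 360 counts in aged-SP replicates 1 and 4 and 272, 228 and 291 in young-SP replicates 1, 2 and 4. The groups overlapped, and the log2 fold change was 0.19 (95% interval -0.43 to 0.82, adjusted p = 0.710 in edgeR). Of the exonic bases of Fgf2 (chromosome 3, 37348346 to 37410108, plus strand, ENSMUSG00000037225), 13.2% are shared with Nudt6 on the opposite strand or with Gm43439, and the library kit does not mark strand, so that part of this count may belong to those genes.

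Fgf7, Fgf10 and Fgf18 are ligands that mesenchyme makes, of which FGF7 and FGF10 act on nearby epithelium. Fgf7 (chromosome 2, 126034658 to 126091185, plus strand, ENSMUSG00000027208) had 70 and 131 counts in aged-SP replicates 1 and 4 and 57, 76 and 87 in young-SP replicates 1, 2 and 4. Aged-SP replicate 4 was the highest library and aged-SP replicate 1 lay within the young-SP range (log2 fold change 0.45, 95% interval -0.48 to 1.38, adjusted p = 0.554 in edgeR). Fgf10 (chromosome 13, 118669791 to 118792115, plus strand, ENSMUSG00000021732) was counted 65 and 122 times in aged-SP replicates 1 and 4 and 134, 101 and 133 times in young-SP replicates 1, 2 and 4. Here aged-SP replicate 1 was the lowest library and the groups overlapped (log2 fold change -0.40, 95% interval -1.30 to 0.50, adjusted p = 0.582 in edgeR). Fgf18 (chromosome 11, 33117430 to 33147400, minus strand, ENSMUSG00000057967) was counted least among the ligands, with 10 and 34 reads in the aged-SP libraries and 26, 21 and 22 in the young-SP libraries. The aged-SP libraries enclosed the young-SP range (log2 fold change -0.06, 95% interval -1.46 to 1.34, adjusted p = 0.966 in edgeR). In all of Fgf2, Fgf7, Fgf10 and Fgf18 aged-SP replicate 4 was above aged-SP replicate 1, and the intervals of Fgf7, Fgf9, Fgf10 and Fgf18 each include differences of more than 1 on the log2 scale.

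The upstream sequences of these 3 mesenchymal ligands are shown because Fgf7 and Fgf10 share a receptor form and were at near levels, and Fgf18 is the contrast in base composition. Each is the 250 bases before the RefSeq transcript start on GRCm38.p6, read in the direction of the gene, and none overlaps an exon of GENCODE M21. The Fgf7 and Fgf18 windows lie directly before the gene start given above. That of Fgf10 lies inside the gene span (118669791 to 118792115, plus strand), before an internal transcript start. The capitals mark matches to a CCAAT box (CCAAT or its reverse complement ATTGG) or a GC box (GGGCGG or CCGCCC). No match to a TATA box written as TATAAA or TTTATA was in these windows.
Fgf7, chr2:126034408-126034657, plus strand: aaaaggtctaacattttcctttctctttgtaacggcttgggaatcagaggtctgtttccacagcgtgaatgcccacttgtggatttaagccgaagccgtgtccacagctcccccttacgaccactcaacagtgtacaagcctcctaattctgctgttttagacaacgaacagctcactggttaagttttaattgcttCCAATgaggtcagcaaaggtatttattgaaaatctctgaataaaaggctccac
Fgf10, chr13:118714449-118714698, plus strand: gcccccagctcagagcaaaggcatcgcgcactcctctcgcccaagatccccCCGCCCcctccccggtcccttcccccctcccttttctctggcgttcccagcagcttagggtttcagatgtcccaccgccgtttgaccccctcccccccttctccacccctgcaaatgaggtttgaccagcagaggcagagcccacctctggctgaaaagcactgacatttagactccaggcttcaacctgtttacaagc
Fgf18, chr11:33147401-33147650, minus strand: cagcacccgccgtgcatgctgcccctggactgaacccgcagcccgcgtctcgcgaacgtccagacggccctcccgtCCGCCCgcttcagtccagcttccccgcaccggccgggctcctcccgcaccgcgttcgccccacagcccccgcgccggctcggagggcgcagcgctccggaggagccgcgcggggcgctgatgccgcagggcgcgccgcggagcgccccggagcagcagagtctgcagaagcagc
The Fgf7 window has a GC content of 43.6%, with 6 CpG dinucleotides and 1 CCAAT box. That of Fgf10 has 61.2% GC, 8 CpG dinucleotides and 1 GC box, and that of Fgf18 has 77.2% GC, 37 CpG dinucleotides and 1 GC box. Over the 32851 promoter windows of the same length in the table, the median GC content was 52.4%, and 32.7% held a GC box, 33.8% a CCAAT box and 12.4% a TATA box. Such matches are letters in a window and not evidence of binding. Of the 10 FGF genes, 8 had a window in the table.

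Among the receptors, Fgfr1, the main receptor of mesenchymal cells, separated the groups, with both aged-SP libraries on top. Its count was 1598 and 1440 in aged-SP replicates 1 and 4 and 994, 1180 and 1106 in young-SP replicates 1, 2 and 4. It averaged 94.4 ± 3.18 CPM with aged SP (SD, n = 2) against 68.6 ± 5.92 CPM with young SP (SD, n = 3), and the ranges did not overlap. The log2 fold change was 0.46 (95% interval 0.20 to 0.72), with an adjusted p of 0.119 in edgeR, the smallest of the 10 genes. In DESeq2 it was 0.0282, where 7.58% of genes were under 0.05. It was below 1 in size, so that Fgfr1 was called by neither tool. Leaving out each library in turn moved it only between 0.38 and 0.51. Fgfr1 lies on chromosome 8 (25513654 to 25575718, plus strand, ENSMUSG00000031565), and 1.66% of its exonic bases are shared with the opposite-strand gene Gm16159.

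Fgfr4, a receptor best known from liver and muscle, was the least abundant of the 10 genes and had the same arrangement. It had 32 and 34 counts in aged-SP replicates 1 and 4 and 18, 16 and 20 in young-SP replicates 1, 2 and 4. The aged-SP libraries again lay above the whole young-SP range, with averages of 2.05 ± 0.170 CPM for aged SP (SD, n = 2) and 1.14 ± 0.195 CPM for young SP (SD, n = 3). The log2 fold change was 0.85 (95% interval 0.11 to 1.60, adjusted p = 0.223 in edgeR) and lay between 0.73 and 0.98 with a library left out. The gene is on chromosome 13 (55152640 to 55168759, plus strand, ENSMUSG00000005320) and shares no exonic base with another gene.

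Fgfr2, the epithelial receptor of FGF7 and FGF10, was the most abundant FGF gene in every library but did not separate the groups. Its count was 2125 and 1846 in aged-SP replicates 1 and 4 and 1571, 2046 and 2855 in young-SP replicates 1, 2 and 4. The lowest and the highest library were both of the young-SP group, which enclosed the aged-SP range. The log2 fold change was -0.15 (95% interval -0.86 to 0.56, adjusted p = 0.813 in edgeR). Fgfr2 is on chromosome 7 (130162451 to 133123350, minus strand, ENSMUSG00000030849) in a span that holds parts of 69 other genes, of which Ctbp2 shares 3.04% of the exonic bases of Fgfr2. By the pattern over the 5 libraries, the tested genes most like Fgfr2 were Rsph1 (root mean square difference 0.064), Nyap1 (0.074) and Akap6 (0.077), of which Rsph1 encodes a radial spoke protein of cilia and Akap6 a scaffold for protein kinase A.

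Fgfr3 had 60 and 93 counts in aged-SP replicates 1 and 4 and 69, 135 and 76 in young-SP replicates 1, 2 and 4. The groups overlapped (log2 fold change -0.28, 95% interval -1.20 to 0.65, adjusted p = 0.725 in edgeR). For this receptor (chromosome 5, 33721674 to 33737068, plus strand, ENSMUSG00000054252), best known for restraining bone growth, 13.9% of the exonic bases are shared with G630022F23Rik on the opposite strand, so that its count is uncertain. Setting the receptors against each other per length, the ratio of Fgfr2 to Fgfr1 FPKM was 1.27 and 1.23 in aged-SP replicates 1 and 4 and 1.51, 1.66 and 2.47 in young-SP replicates 1, 2 and 4. The ratio was lower in both aged-SP libraries, but an exact permutation test of the means gave a two-sided p of 0.2, where the smallest possible p with these 5 libraries is 0.1, and the ratio was chosen after the values had been seen. The summed FPKM of the receptors was 22.6 ± 0.614 (SD, n = 2) and 21.3 ± 5.17 (SD, n = 3) in the aged-SP and young-SP groups, a difference smaller than the spread.

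Over the 10 genes, 0 were called higher and 0 lower by edgeR, against 0.147% of all tested genes in either direction, and 0 were called by DESeq2. Fgfr1 and Fgfr4 alone had an unadjusted p under 0.05, both higher, or 2 of 10 genes against 19% of all tested genes (9.62% higher and 9.36% lower). They were also the only 2 of the 10 whose groups did not overlap, against 38.8% of all tested genes (19.5% higher and 19.3% lower). Neither count over the 10 genes stood out from the background. The median log2 fold change was 0.07 over the 10 genes, with 5 higher and 5 lower, and 0.01 over all tested genes. Only Fgf1, Fgfr1 and Fgfr4 kept their direction in all 5 fits that left out a library, and 7 of the 10 turned in at least 1 of them. With 1 aged-SP library left, the lone library was assumed to vary like the young-SP libraries.

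**Figure D3:**
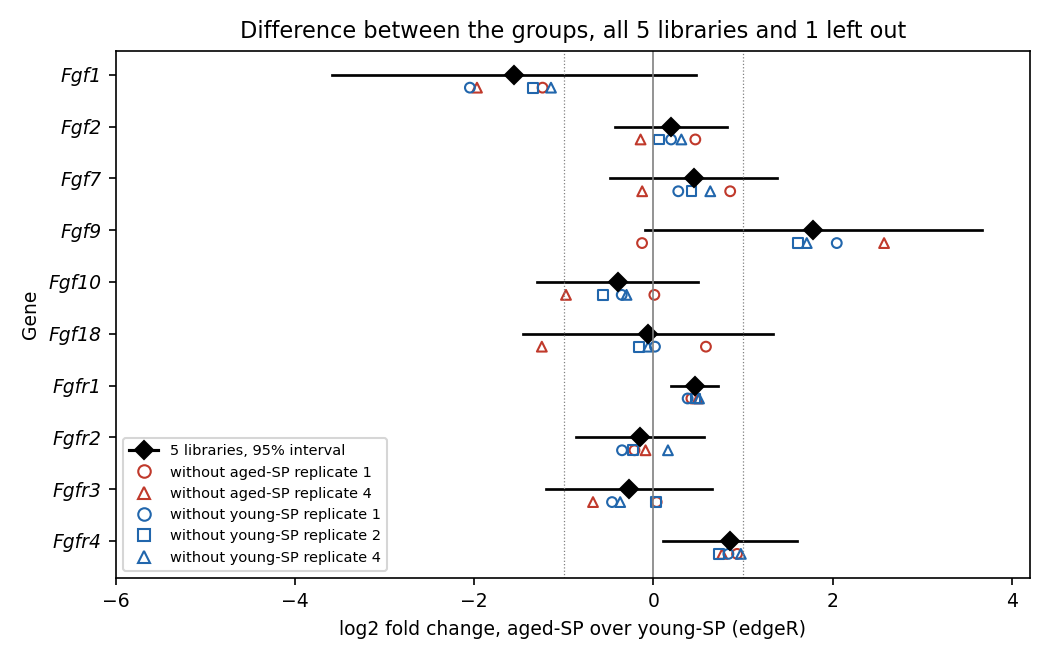
Log2 fold change of aged-SP over young-SP for each FGF gene by edgeR, with the diamond for all 5 libraries, the line for its 95% interval and open symbols for the fit without the named library (dotted lines at -1 and 1). The interval lies above 0 for Fgfr1 and Fgfr4, and the Fgf9 symbol without aged-SP replicate 1 falls to -0.13.

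The rest of the FGF pathway was followed in 5 lists of 103 genes, of which 97 were in the table and 84 were tested. By edgeR 0 of the 84 were called in either direction. An unadjusted p under 0.05 in edgeR was reached by 15 (10 higher and 5 lower), against 19% of all tested genes. DESeq2 called 3, against 3.6% of the genes with an adjusted p in DESeq2. Of the 84, 32 had groups that did not overlap, close to the share over all tested genes (38.8%). Of 16 genes listed as other FGF ligands, 11 were in the table and 4 were tested (Fgf11, Fgf12, Fgf13 and Fgf16), with 0 under an unadjusted p of 0.05. The other 7 had at most 6 counts in any library. Fgf12 and Fgf13, whose proteins stay inside the cell and bind sodium channels rather than act as secreted ligands, had log2 fold changes of 0.08 and 0.10. The secreted Fgf16 had 0.73 from at most 12 counts a library (adjusted p between 0.654 and 0.928 in edgeR for these 3 genes).

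Among co-receptors, decoys and carriers, 9 of 13 genes were tested, with a median log2 fold change of 0.07. The adhesion molecule Ncam1, which can bind FGF receptors, had 409 and 313 counts in aged-SP replicates 1 and 4 and 124, 162 and 180 in young-SP replicates 1, 2 and 4. Both aged-SP libraries were higher, with a log2 fold change of 1.19 (95% interval 0.63 to 1.75, adjusted p = 0.0909 in edgeR and 0.000726 in DESeq2). Ncam1 also marks NK cells, nerves and other cells, and which of them gave the reads was not tested. Fgfrl1, a receptor-like protein without a kinase domain, averaged 24.1 ± 5.09 CPM with aged SP (SD, n = 2) and 15.4 ± 2.83 CPM with young SP (SD, n = 3, adjusted p = 0.208 in edgeR). The FGFR-binding membrane protein Flrt3 was at 12.3 ± 2.64 and 18.5 ± 3.03 CPM (SD, n = 2 and 3, adjusted p = 0.243 in edgeR).

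Heparan sulfate proteins and enzymes gave the smallest adjusted p values of the pathway in edgeR, with 27 of 30 genes tested and a median log2 fold change of 0.00. An unadjusted p under 0.05 in edgeR was reached by 5 of the 27 (2 higher and 3 lower), against 19% of all tested genes. The groups did not overlap for 9 of the 27, against 38.8% of all tested genes, so the list did not stand out from the background. Glce, the epimerase that converts glucuronic to iduronic acid in the chain, was at 38.9 and 37.9 CPM in aged-SP replicates 1 and 4 and at 56.9, 65.2 and 70.8 CPM in young-SP replicates 1, 2 and 4. The groups were well apart for a log2 fold change of -0.74 (95% interval -1.04 to -0.44, adjusted p = 0.0760 in edgeR and 0.000323 in DESeq2). The proteoglycan Gpc6, which carries such chains at the cell surface, had counts of 396 and 235 in aged-SP replicates 1 and 4 and between 645 and 707 in the young-SP group. Its log2 fold change was -1.14 (95% interval -1.67 to -0.61, adjusted p = 0.0903 in edgeR and 0.000193 in DESeq2). The sulfotransferase Hs3st3b1 was higher in both aged-SP libraries, at 14.4 and 13.2 CPM against 4.27 to 7.26 CPM (log2 fold change 1.21, adjusted p = 0.108 in edgeR and 0.00275 in DESeq2). Ncam1, Gpc6 and Hs3st3b1 were the 3 genes called by DESeq2.

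All 26 adaptors and transducers were tested, with a median log2 fold change of 0.02. At an unadjusted p under 0.05 in edgeR, against 19% of all tested genes, 0 genes were lower and 3 higher. These were phospholipase Plcg1 (log2 fold change 0.41), the kinase subunit Pik3ca (0.28) and the transcription factor Stat3 (0.47), with adjusted p between 0.186 and 0.200 in edgeR. For all 3 the aged-SP libraries lay above the young-SP range, with Stat3 at 308 and 229 CPM against 177 to 202 CPM. All 18 feedback inhibitors and target genes were tested. Of these, 13 were higher and 5 lower, with a median log2 fold change of 0.30 and the smallest adjusted p of 0.153 in edgeR. Over all tested genes 8663 were higher and 8350 lower, with a median of 0.01. An unadjusted p under 0.05 in edgeR was reached by 4 of the 18 (3 higher and 1 lower), against 19% of all tested genes. The groups did not overlap for 9 of the 18, against 38.8% of all tested genes. The feedback inhibitor Spry1 was at 27.6 and 19.3 CPM in the aged-SP libraries and at 11.8, 13.4 and 17.2 CPM in the young-SP libraries (log2 fold change 0.73, adjusted p = 0.196 in edgeR). The membrane inhibitor Il17rd was at 50.8 and 43.9 CPM against 33.8 to 37.7 CPM (log2 fold change 0.39, adjusted p = 0.162 in edgeR). Spry3, of the same family as Spry1, went the other way at very low counts (log2 fold change -2.47, adjusted p = 0.153 in edgeR). Its counts were 7 and 1 in the aged-SP libraries and 24, 19 and 24 in the young-SP libraries. Also lower were Spry2 and Spry4 (log2 fold change -0.18 each), Egr1 (-0.08) and Myc (-0.48). Of these, Spry2 and Myc had groups that did not overlap. These shared directions are values only, since none of these genes passed the test in edgeR.

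**Figure D4:**
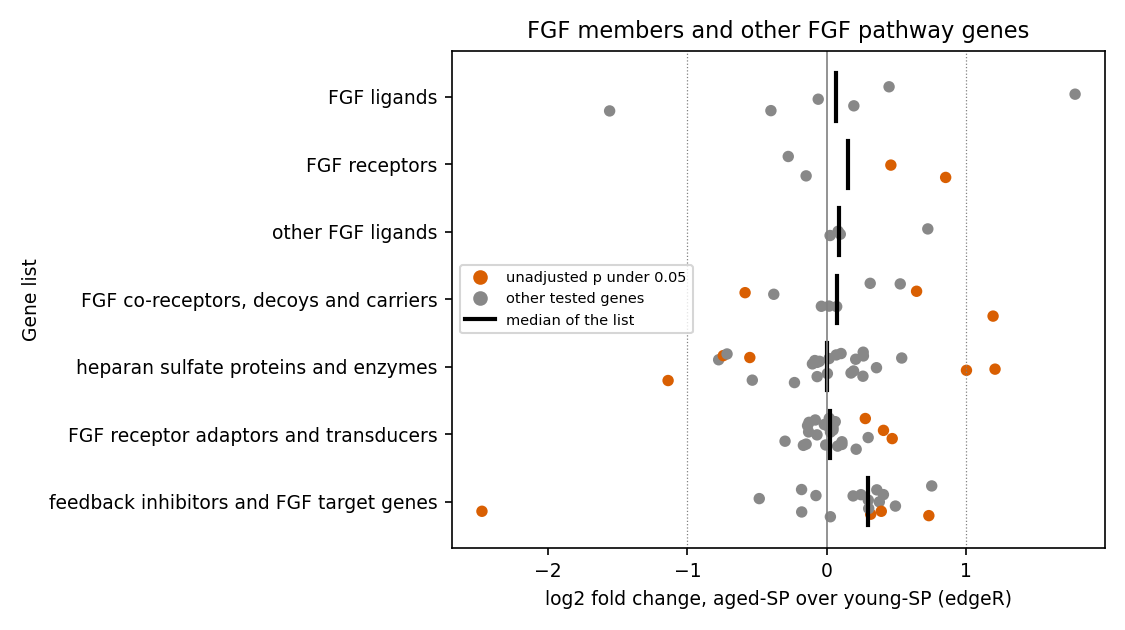
Log2 fold change of aged-SP over young-SP (edgeR) for the tested genes of each list, with orange points for an unadjusted p under 0.05, black bars for the median of the list and dotted lines at -1 and 1. The medians lie between 0.00 and 0.30, and the lowest point is Spry3 at -2.47.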

How the data were processed

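Uterine RNA of 5 libraries was analysed, 2 of the aged-SP group and 3 of the young-SP group, grouped by the sample labels. After read filtering and alignment with HISAT2 2.1.0, the authors deposited raw counts per gene and library. The role of Bowtie2 2.2.3 and HTSeq 0.6.0, named in the submitters' processing notes, is not given in the sources used here. The deposited FPKM values were checked to equal the counts divided by gene length and total count, and served for levels between genes. The deposited table also holds the authors' own DESeq2 comparison: a mean signal of scaled counts, a fold change, its log2 value, a p-value and an adjusted p-value, none of which was used. A young-SP library that the study set aside was not analysed here.

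Counts were filtered with filterByExpr, scaled by TMM (factors between 0.990 and 1.02) and tested with glmQLFit and glmQLFTest in edgeR 4.0.16 (R 4.3.3, two-sided, Benjamini-Hochberg over all tested genes). The thresholds are those of the study. CPM values are counts per 1000000 of the TMM-scaled library size. Intervals at 95% come from the log2 fold change and its standard error, which was derived from the F statistic. Depth was 15071914 to 16728601 counts a library, and the biological coefficient of variation was 25.1%. Each of the 10 pairs of libraries differed beyond sampling noise (chi-square per degree of freedom 17.0 to 82.3). Alternatives were DESeq2 1.42.0, limma-voom (limma 3.58.1), other scalings and filters, the adjusted p alone, a replicate block and each library left out. The tests were checked on simulated counts. Overlap of exons and shared 50-base stretches were taken from GENCODE M21, and promoter windows from RefSeq on GRCm38.p6.

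The FGF genes and all lists were chosen with earlier results of these data known. Named were the 10 FGF genes, the called genes and the 3 with the smallest p of each pathway list, the 2 most abundant genes of a marker list, and the 3 genes most like the most abundant ligand and receptor. Other genes of the marker and pathway lists, among them Spink1, Hpse, Foxa2, Cxcl15, Aldh1a1, Vcam1, Thy1, Upk3b, Spry2 and Myc, were named after their values were seen. Marker lists covered uterine epithelium, glands, stroma, myometrium, endothelium, leukocytes, mesothelium, ovary, oviduct, vagina and cervix, adipose tissue and skeletal muscle.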

Additional observations from a re-analysis of the deposited data

How the results depend on the processing

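Scaling by DESeq2 size factors or by library size alone, limma-voom and a minimum of 10 counts in every library left the count of called genes within 1.5 times of 25, while DESeq2's Wald test called 632 and edgeR without a filter on low counts 203. With a library left out the count lay between 1 and 578. Without aged-SP replicate 1 it was 1 and without aged-SP replicate 4 it was 49. Leaving out young-SP replicates 1, 2 and 4 in turn gave 578, 3 and 2 calls, and the cause was not tested. The number of called FGF genes lay between 0 and 1, with Fgf1 called without young-SP replicate 1. The number of called pathway genes was 3 with DESeq2 and between 0 and 1 with a library left out (Hpse, without young-SP replicate 1). FGF genes whose groups did not overlap numbered between 2 and 6 of 10, with 5 without aged-SP replicate 1, 6 without aged-SP replicate 4 and 4 without young-SP replicate 1. Over all tested genes the share in these 3 settings was 61.1%, 63.9% and 55.4%, as fewer libraries have to be separated.

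With a library left out, the log2 fold change lay between -0.14 and 0.47 for Fgf2, -0.13 and 0.86 for Fgf7, -0.13 and 2.57 for Fgf9, -0.98 and 0.0099 for Fgf10, -1.25 and 0.59 for Fgf18, -0.35 and 0.16 for Fgfr2 and -0.67 and 0.036 for Fgfr3. It lay between -0.29 and 0.41 for Fgf13 and -0.033 and 0.27 for Fgf12. In the other alternatives all 10 FGF genes kept their direction, and the adjusted p of Fgf1 over all alternatives lay between 0.0279 and 0.700 and that of Fgfr1 between 0.0282 and 0.375 (edgeR, DESeq2 or limma). The replicate numbers 1 and 4 occur in both groups, but the labels do not say what they mark. The deviations of same-numbered libraries from their group means correlated at 0.152 and 0.136 over genes in only 2 pairs. With 2 aged-SP libraries, the deviations of one are the negative of the other. The 2 values are therefore not independent and cannot decide on a pairing. With the replicate block edgeR called 2 genes, and 0 FGF or pathway genes. Genes with few counts, such as Fgf18, Fgfr4 and Spry3, are limited by depth, and a difference in them could not be resolved below the width of their intervals.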
